A study of Mus musculus with 22 samples.

Results

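The genes described here are 36 mouse genes of the integrated stress response and of amino acid supply, listed by name from knowledge of the Atf4 pathway: 6 transcription factors, 6 feedback and stress effectors, 8 enzymes of amino acid synthesis and mitochondrial folate metabolism, 5 amino acid transporters and 11 cytosolic aminoacyl-tRNA synthetases. All 36 were among the 24421 genes of the 22 count files, and all 36 passed the filter on low counts in each comparison. The libraries came from organoids of the mouse bladder, which are epithelial cell cultures that organise themselves in culture, and the study asks how loss of Arid1a, a DNA-binding subunit of the BAF chromatin remodelling complex, goes with mRNA levels and mRNA translation. Primary bladder urothelial organoids, Arid1a KO or Arid1a WT, gave 3 libraries per genotype of total RNA, of the polysome fraction and of the subpolysome fraction of a 10 to 50% sucrose gradient. Total RNA of isogenic bladder cancer organoids, a line of one genetic background, gave 2 libraries labelled Arid1a KO and 2 labelled Arid1a WT. No treatment, age, strain, deleted exon or Cre driver is given in the labels.

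When the initiation factor eIF2 is phosphorylated by one of its kinases, for example by Gcn2 on amino acid shortage or by Perk on stress of the endoplasmic reticulum, most translation slows while some mRNAs with short upstream open reading frames (uORFs) are translated more. Atf4 is the best known of these. Its protein switches on genes that make, import and charge amino acids onto tRNA, together with Ddit3 (CHOP), Trib3 and Chac1, which are linked to cell death under lasting stress, and with Ppp1r15a (GADD34), the phosphatase subunit that restores eIF2. On a sucrose gradient, mRNAs carrying several ribosomes run in the polysome fraction, and those with few or none stay in the subpolysome fraction.

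Libraries held 66227600 to 74605489 counts in total RNA, 64911189 to 76594655 in polysomes, 39245248 to 51628570 in subpolysomes and 48429672 to 55431426 in cancer organoids, and the lowest count of any of the 36 genes was 40 (Pycr1 in a subpolysome library). Levels are CPM, each gene's share of a library's counts, after TMM scaling over all 22 libraries. Arid1a itself had 75.2, 75.3 and 84.1 CPM in KO total RNA and 114, 131 and 117 CPM in WT total RNA (log2 fold change -0.60, SE 0.06, adjusted p = 5.68e-06). In polysomes it had 23.7, 19.3 and 13.9 CPM in KO and 34.7, 24.9 and 21.7 CPM in WT libraries, which overlapped and did not pass (log2 fold change -0.48, adjusted p = 0.0817). In subpolysomes it had 75, 63.9 and 62.1 CPM in KO and 60.1, 62.3 and 55.5 CPM in WT libraries, so that the direction there goes against the labels without passing (log2 fold change 0.19, adjusted p = 0.276), and the genotype of the fraction libraries is as labelled. In the cancer organoids the libraries labelled KO 1 and KO 2 had 174 and 56.2 CPM of Arid1a, and those labelled WT 1 and WT 2 had 66.5 and 196 CPM, so the counts of the libraries labelled KO 1 and WT 1 go against their labels. The summed level of 5 basal urothelial markers was 12100 to 13000 CPM in KO and 10900 to 12900 CPM in WT total RNA, and that of 9 luminal markers was 3410 to 3810 CPM in KO and 3340 to 3550 CPM in WT. Ptprc, Adgre1, Cd3e and Lyz2 of the immune list, Cdh5, Kdr and Tek of the endothelial list, and Col1a2, Col3a1, Pdgfrb, Dcn and Lum of the stromal list stayed under 1 CPM in every primary organoid library. The rest of these lists reached 1 CPM in some library, Cd68 and Col1a1 in each kind of RNA and Pecam1 and Pdgfra in subpolysomes. Absence of these cell types is thus not shown.

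The upstream start codons of the 4 mRNAs best known for uORF control are shown first, as these mRNAs are followed along the gradient later. In the annotated transcript of each gene (GENCODE, GRCm38), Atf4 had 3 upstream ATGs, opening frames of 36, 3 and 59 codons, the last of which runs past the Atf4 start. Atf5 had 2, opening frames of 3 and 58 codons, the last again running past the coding start. Ddit3 had 2 ATGs in 1 frame, giving 34 and 31 codons, and Ppp1r15a had 3, giving 45, 34 and 26 codons, all of which end inside the leader. Each line gives 9 bases before the ATG, the ATG in capitals and 12 bases after it.
Atf4 first upstream ATG, chr15:80255294-80255317, plus strand: ttttctctcATGgggcctttagga
Atf4 second upstream ATG, chr15:80255573-80255596, plus strand: gcggccaccATGgcgtattagagg
Atf4 last upstream ATG, chr15:80255672-80256216, plus strand, across an exon junction: gcctaagccATGgcgctcttcacg
Atf4 coding start, chr15:80256290-80256313, plus strand: ccccacaacATGaccgagatgagc
Atf5 first upstream ATG, chr7:44816523-44816546, minus strand: gcccgcgcaATGgctctgtagccg
Atf5 second upstream ATG, chr7:44815273-44816415, minus strand, across an exon junction: ttcgccgccATGgagtcctccacc
Atf5 coding start, chr7:44815152-44815175, minus strand: gtcacagccATGtcactcctggcg
Ddit3 first upstream ATG, chr10:127290820-127290843, plus strand: gattatatcATGttgaagatgagc
Ddit3 second upstream ATG, chr10:127290829-127290852, plus strand: atgttgaagATGagcgggtggcag
Ddit3 coding start, chr10:127295332-127295355, plus strand: cgtgcagtcATGgcagctgagtcc
Ppp1r15a last upstream ATG, chr7:45526075-45526098, minus strand: gagggcgacATGaacccgctggct
Ppp1r15a coding start, chr7:45525368-45525391, minus strand: cccagacacATGgccccgagccca

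Promoters were searched for TGATGNAA on both strands, the composite site (CARE) at which Atf4 is known to bind with a C/EBP partner. RefSeq start sites (GRCm38.p6, 250 bases before to 50 after) were matched for 30 of the 36 genes, all but Slc7a5, Slc1a5, Cars, Lars, Nars and Wars. The motif was present in 12 of the 30 (40%), against 1219 of 27025 genes (4.51%). It was found in 5 of 7 synthetases (Aars, Gars, Iars, Tars and Yars), 4 of 6 stress effectors (Trib3, Chac1, Nupr1 and Vldlr), 2 of 8 enzymes (Asns and Pycr1), 1 of 6 transcription factors (Atf3) and 0 of 3 transporters. The other cytosolic synthetases and the multisynthetase scaffold held it in 0 of 9, the mitochondrial synthetases in 0 of 14 and other genes known as Atf4 targets in 6 of 24. A match is a string of letters in this window and says nothing of binding. As the 36 genes were listed from knowledge of the Atf4 pathway, their higher share of motifs is not an independent result. The 250 bases before the start site of 3 genes that were lower in KO total RNA read as follows, with the motif in capitals on whichever strand it lies.
Atf3, chr1:191183334-191183583, minus strand: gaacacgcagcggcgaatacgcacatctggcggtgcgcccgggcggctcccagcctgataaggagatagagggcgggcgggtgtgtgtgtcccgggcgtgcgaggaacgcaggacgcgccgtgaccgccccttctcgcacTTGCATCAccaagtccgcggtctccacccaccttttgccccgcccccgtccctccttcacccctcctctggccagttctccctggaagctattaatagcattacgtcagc
Chac1, chr2:119350992-119351241, plus strand: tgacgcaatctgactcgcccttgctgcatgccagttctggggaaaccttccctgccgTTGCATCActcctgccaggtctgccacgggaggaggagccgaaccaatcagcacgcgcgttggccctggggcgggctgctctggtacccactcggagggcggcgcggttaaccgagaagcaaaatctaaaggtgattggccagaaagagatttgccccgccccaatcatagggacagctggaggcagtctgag
Pycr1, chr11:120643749-120643998, minus strand: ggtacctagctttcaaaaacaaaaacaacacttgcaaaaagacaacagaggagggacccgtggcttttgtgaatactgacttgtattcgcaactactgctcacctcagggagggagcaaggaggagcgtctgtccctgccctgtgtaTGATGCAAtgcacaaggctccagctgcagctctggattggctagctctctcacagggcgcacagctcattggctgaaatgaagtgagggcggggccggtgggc

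In the other genes except Vldlr the motif and its 8 neighbouring bases on each side are given. They compare stress effectors that fell in KO (Trib3 and Nupr1) with Asns and synthetases that did not. Aars has 2 matches, and the one before its start site is shown.
Trib3, chr2:152344031-152344054, minus strand: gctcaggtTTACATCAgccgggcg
Nupr1, chr7:126625565-126625588, minus strand: gggccagaTTGCATCAgacagggc
Asns, chr6:7693217-7693240, minus strand: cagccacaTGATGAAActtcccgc
Aars, chr8:111033722-111033745, plus strand: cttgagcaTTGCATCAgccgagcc
Gars, chr6:55037963-55037986, plus strand: ctgcgctaTTTCATCAtgcaccgg
Iars, chr13:49682129-49682152, plus strand: tgtcagtaTTGCATCAcctccaga
Tars, chr15:11399658-11399681, minus strand: gagtcccgTTGCATCAgctggtta
Yars, chr4:129189898-129189921, plus strand: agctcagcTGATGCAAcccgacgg

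In total RNA of primary organoids, Arid1a KO went with lower mRNA of the stress genes Trib3, Atf3, Nupr1, Ddit3 and Chac1 and with higher mRNA of the transporters Slc1a5, Slc7a1 and Slc3a2 and of the serine synthesis enzyme Psat1, while Atf4 mRNA and most synthetases did not pass the test. Of the 36 genes, 8 were higher and 9 lower in KO than in WT at an adjusted p under 0.05 (47.2% in all), against 53.2% of the 13198 genes tested (27% higher and 26.3% lower). The share called was thus below that of all genes, and the median log2 fold change of the 36 was -0.05, against 0.0026 over all genes. In such bulk libraries, fewer cells of a type and less RNA per cell cannot be told apart. Marker sums of other cell types also differed between the genotypes at low levels. The 4 smooth muscle markers summed to 16.1 to 17.6 CPM in KO and 4.93 to 5.59 CPM in WT total RNA, with Myh11, Des and Cnn1 under 1 CPM in every library, 5 immune markers to 17.6 to 19.7 CPM in KO and 7.81 to 9.43 CPM in WT, and the 7 stromal markers to 1.58 to 1.89 CPM in KO and 2.9 to 3.66 CPM in WT. Their part in the differences of the 36 genes was not tested. By length-scaled level, mean CPM per kilobase of transcript, Nupr1 was the highest of the 36 in both genotypes (553 ± 34.3 in KO and 840 ± 62.1 in WT total RNA, SD, n = 3 each), followed by Atf4 (163 ± 10.3 in KO and 168 ± 4.91 in WT).

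Among the transcription factors, Atf4 mRNA was level between the genotypes and 3 of 6 were lower in KO. Atf4 had 261, 285 and 297 CPM in KO and 295, 280 and 293 CPM in WT libraries. The groups overlapped, and the log2 fold change was -0.02 (SE 0.05, adjusted p = 0.826). Atf3, a repressor induced by many stresses, had 4.60, 4.48 and 4.57 CPM in KO and 5.34, 7.93 and 8.37 CPM in WT libraries. Every KO library lay below every WT library, with WT 1 nearest to them (log2 fold change -0.63, SE 0.15, adjusted p = 0.00356). Ddit3 had 13.4, 14.8 and 13.8 CPM in KO and 19.4, 19.2 and 19.5 CPM in WT libraries, again with no overlap. It fell by 0.44 on the log2 scale (SE 0.06, adjusted p = 0.000148), although its gene overlaps that of Mars on the opposite strand and the treatment of strand in counting is not given in the sources used here. Atf5, whose mRNA carries uORFs as Atf4 does, had 24.1, 26.0 and 28 CPM in KO and 30.4, 31.4 and 28 CPM in WT libraries. Its lowest WT library equalled its highest KO library, and its call (log2 fold change -0.17, SE 0.07, adjusted p = 0.0487) was lost without KO 1, KO 2, WT 1 or WT 2 (adjusted p = 0.0954 to 0.184). Cebpb and Cebpg, bZIP partners of Atf4, had log2 fold changes of -0.07 and -0.05 and did not pass.

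Of the 6 feedback and stress effectors, 3 fell and 1 rose in KO. Trib3, a pseudokinase that Atf4 and Ddit3 induce, had 7.14, 9.58 and 8.55 CPM in KO and 15.3, 12.6 and 15.2 CPM in WT libraries. The groups were well apart, and at -0.74 (SE 0.12, adjusted p = 0.000241) its log2 fold change was the lowest of the 36. Nupr1, a small stress-induced chromatin protein, had 432, 489 and 454 CPM in KO and 637, 727 and 725 CPM in WT libraries, with no overlap (log2 fold change -0.57, SE 0.06, adjusted p = 6.35e-06). Chac1, which breaks down glutathione, had 11.6, 10.7 and 10.7 CPM in KO and 15.6, 13.6 and 14.8 CPM in WT libraries. The groups did not overlap (log2 fold change -0.39, SE 0.08, adjusted p = 0.00162). Ppp1r15a ran the other way, with 30.8, 29.8 and 28.7 CPM in KO and 25.9, 24 and 28.9 CPM in WT libraries. WT 3 lay among the KO libraries, and the call (log2 fold change 0.21, SE 0.07, adjusted p = 0.0263) was lost without KO 1, KO 2, WT 1 or WT 2 (adjusted p = 0.053 to 0.104). Sesn2, a leucine sensor that restrains mTORC1, and Vldlr, a lipoprotein receptor, had log2 fold changes of 0.01 and 0.02 and did not pass.

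The enzymes split within pathways. Of the serine pathway, Psat1, the transaminase of the middle step, had 355, 289 and 327 CPM in KO and 190, 142 and 138 CPM in WT libraries. At 2.11 times higher in KO it was the largest rise of the 36, with no overlap between groups (log2 fold change 1.08, SE 0.11, adjusted p = 1.04e-05). Phgdh, the dehydrogenase of the first step, had 41.5, 39.3 and 43.2 CPM in KO and 50.8, 48.4 and 44.4 CPM in WT libraries. It was lower in KO with a narrow gap between the groups (log2 fold change -0.19, SE 0.06, adjusted p = 0.0237), and the call was lost without KO 1, KO 2 or WT 1 (adjusted p = 0.057 to 0.0879). Psph, the phosphatase of the last step, had a log2 fold change of 0.00 (SE 0.07). Of the proline pathway, Pycr1, the last reductase, had 6.75, 8.31 and 7.12 CPM in KO and 10.0, 12.2 and 11.4 CPM in WT libraries. It fell by 0.57 on the log2 scale (SE 0.10, adjusted p = 0.000627), with no overlap between genotypes, while Aldh18a1, the enzyme before it, had a log2 fold change of -0.06. Shmt2, which takes the carbon unit of serine into mitochondrial folate, was higher in KO (log2 fold change 0.26, SE 0.07, adjusted p = 0.00987), although KO 2 at 74.2 CPM lay below WT 1 at 76.3 CPM. Mthfd2, the next enzyme on that route, had 32.9, 33.1 and 37.1 CPM in KO and 44.4, 38.9 and 36.7 CPM in WT libraries. KO 3 lay above WT 3, and at a log2 fold change of -0.19 (SE 0.08) it did not pass (adjusted p = 0.0571) but did without KO 3 (0.0303) or WT 3 (0.0217), with no filter on low counts and in DESeq2. Asns, asparagine synthetase and a textbook Atf4 target, had 75.6, 78.3 and 83.1 CPM in KO and 87.3, 84.3 and 84.2 CPM in WT libraries. The genotypes were apart by a small margin, KO lower, and the difference did not pass (log2 fold change -0.08, SE 0.05, adjusted p = 0.169).

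Of the 5 transporters, 3 rose in KO and none fell. Slc1a5, a carrier of glutamine and other neutral amino acids, had 27.7, 27.6 and 30.9 CPM in KO and 17.9, 15.6 and 14.2 CPM in WT libraries. It was 1.84 times higher in KO (log2 fold change 0.88, SE 0.09, adjusted p = 5.77e-06), with no overlap. Slc7a1, a carrier of arginine and other cationic amino acids, had 101, 95.0 and 102 CPM in KO and 63.8, 56.2 and 57.7 CPM in WT libraries. Its groups lay far apart, and its p was the smallest of the 36 (log2 fold change 0.77, SE 0.06, adjusted p = 5.95e-07). Slc3a2, the heavy chain that brings Slc7a5 to the membrane, had 152, 148 and 154 CPM in KO and 111, 100 and 104 CPM in WT libraries. It rose without overlap (log2 fold change 0.55, SE 0.05, adjusted p = 2.71e-06). Slc7a5, the leucine carrier itself, had 39.4, 40.2 and 45.1 CPM in KO and 42.2, 34.2 and 34 CPM in WT libraries. WT 1 lay among the KO libraries, and the gene did not pass (log2 fold change 0.20, adjusted p = 0.0715), but did without WT 1 (0.00171), with no filter on low counts and in DESeq2. Slc38a2, a sodium-coupled carrier of small neutral amino acids, had a log2 fold change of -0.05 and did not pass.

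Of the 11 synthetases, 8 did not pass, with log2 fold changes between -0.08 (Tars) and -0.02 (Mars). Sars, which charges serine, had 273, 260 and 266 CPM in KO and 320, 331 and 326 CPM in WT libraries. It was 1.20 times lower in KO, with no overlap (log2 fold change -0.26, SE 0.04, adjusted p = 0.000126). Yars, which charges tyrosine, was higher in KO by a log2 fold change of 0.17 (SE 0.04, adjusted p = 0.00528). Cars, which charges cysteine, was called higher at 0.10 (SE 0.04, adjusted p = 0.042) but did not pass with RLE factors, no filter, DESeq2, the replicate block, all 18 primary libraries or without any 1 library (adjusted p = 0.0505 to 0.635). The CARE motif lay in 5 of the 9 genes that fell (Atf3, Trib3, Chac1, Nupr1 and Pycr1), in 1 of the 6 that rose and had a promoter entry (Yars), and in 6 of the 15 with an entry that did not pass (Vldlr, Asns, Aars, Gars, Iars and Tars). Fitted on all 18 primary libraries together, where the fractions share in the estimate of the spread, 9 of the 17 calls remained: Atf3, Ddit3, Nupr1, Psat1, Pycr1, Slc1a5, Slc3a2, Slc7a1 and Trib3.

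**Figure D1:**
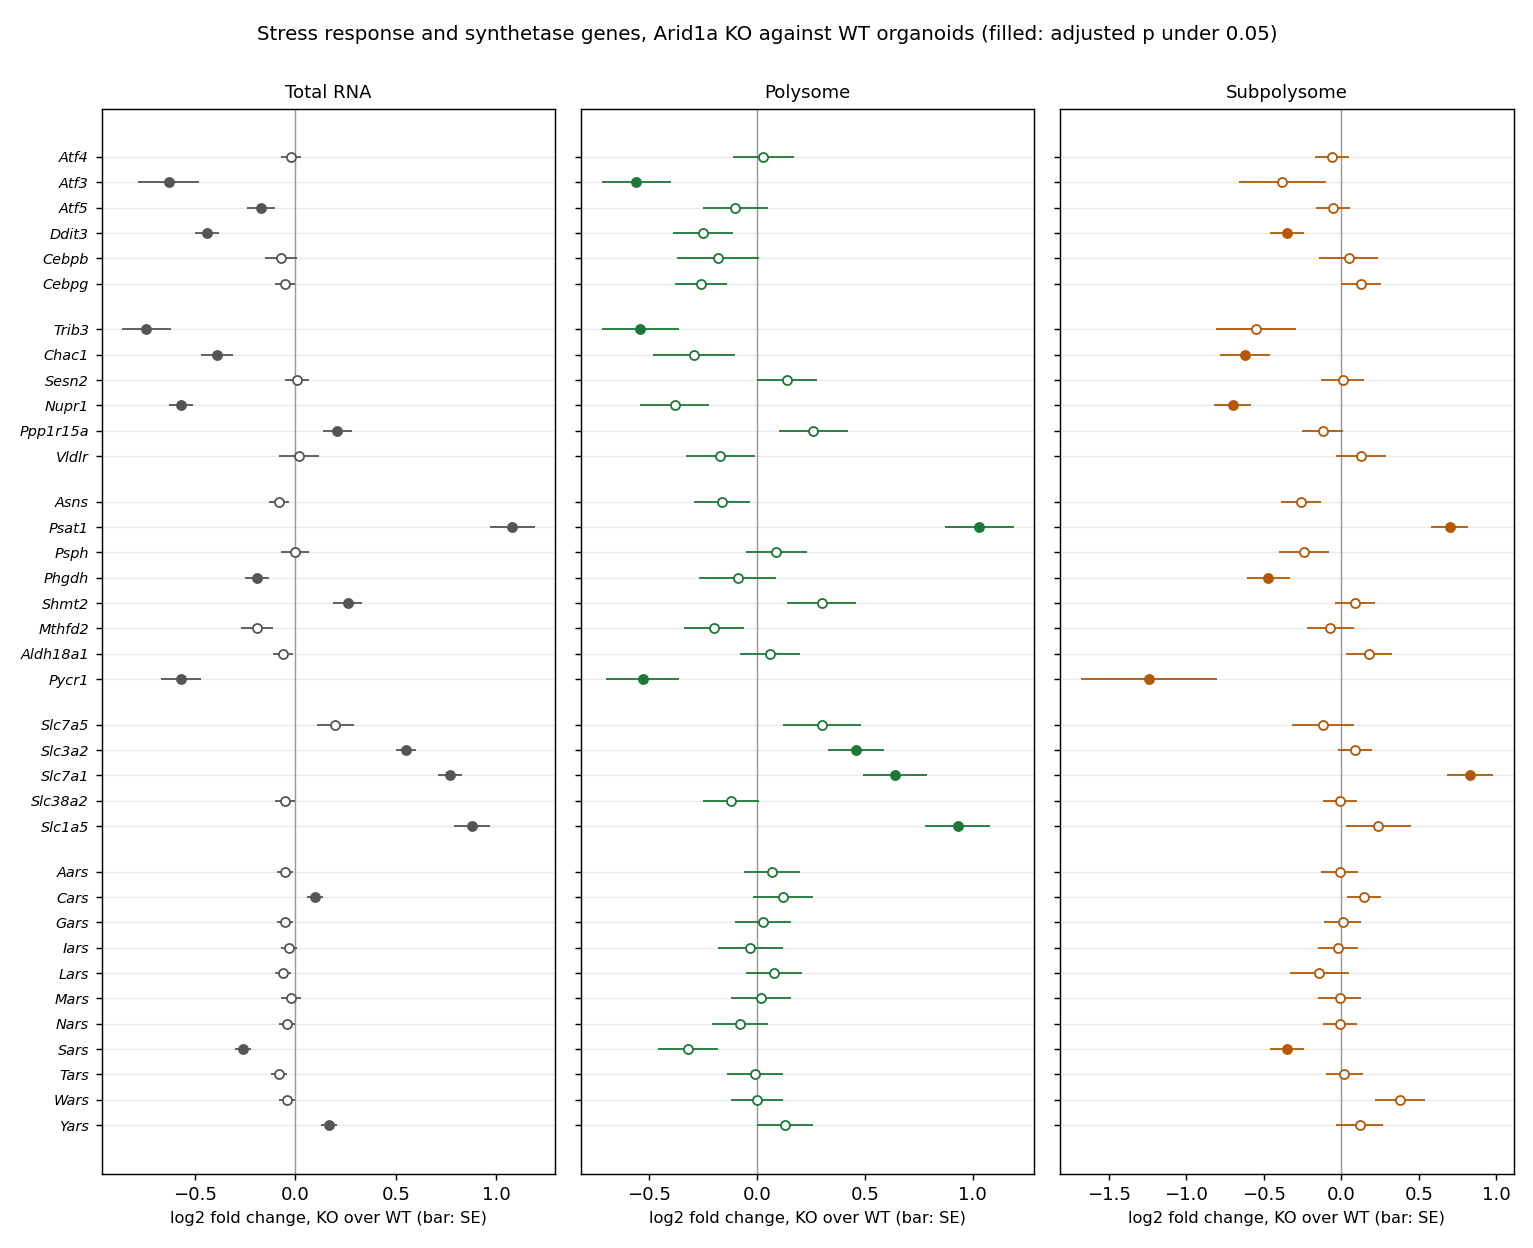
Log2 fold change of the 36 genes between Arid1a KO and WT organoids in total RNA, polysomes and subpolysomes, by role from transcription factors at the top to synthetases at the bottom; bars are the SE of the fit, and filled points have an adjusted p under 0.05. Psat1 and Slc7a1 are filled right of 0 and Pycr1 left of 0 in all 3 panels, and the synthetases lie near 0 apart from Sars and, in subpolysomes, Wars (0.38).

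In polysomes the same contrast gave 7 of 36 genes, 4 higher (Psat1, Slc1a5, Slc7a1 and Slc3a2) and 3 lower in KO (Atf3, Trib3 and Pycr1). That is 19.4%, against 28.8% of 13066 genes tested. Psat1 had 423, 351 and 345 CPM in KO and 231, 177 and 152 CPM in WT polysomes. Slc1a5 had 18.9, 18.7 and 24.3 CPM in KO and 12.3, 9.99 and 10.8 CPM in WT polysomes. Both were about as far apart as in total RNA, with no overlap (log2 fold change 1.03, SE 0.16, adjusted p = 0.000117 for Psat1, and 0.93, SE 0.15, adjusted p = 0.000147 for Slc1a5). Slc7a1 had 43.6, 45.0 and 36.1 CPM in KO and 32.5, 25.3 and 23.7 CPM in WT polysomes. Slc3a2 had 96.6, 101 and 123 CPM in KO and 84.3, 72.9 and 79.4 CPM in WT polysomes. Neither overlapped (log2 fold change 0.64, SE 0.15, adjusted p = 0.0041 for Slc7a1, and 0.46, SE 0.13, adjusted p = 0.0132 for Slc3a2), but Slc3a2 was lost without WT 2 (adjusted p = 0.0731).

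The calls of the lower genes in polysomes were lost more often with 1 library left out. Atf3 had 6.79, 5.4 and 6.26 CPM in KO and 8.11, 9.01 and 10.6 CPM in WT polysomes (log2 fold change -0.56, SE 0.16, adjusted p = 0.0153). Trib3 had 9.42, 13.5 and 16.2 CPM in KO and 18.8, 16.9 and 22.2 CPM in WT polysomes (log2 fold change -0.54, SE 0.18, adjusted p = 0.0296). Pycr1 had 9.24, 14.4 and 13.9 CPM in KO and 17.3, 17.4 and 20.4 CPM in WT polysomes (log2 fold change -0.53, SE 0.17, adjusted p = 0.0239). None of the 3 overlapped, with KO 1 the lowest library of Trib3 and Pycr1. Without WT 3 all of these falls were lost and 4 genes remained called, with adjusted p of 0.0936 for Atf3, 0.108 for Trib3 and 0.0831 for Pycr1. Atf3 was also lost without KO 2 (0.0713), Trib3 without KO 1 (0.148), KO 2 (0.0514) or WT 1 (0.0642), and Pycr1 without KO 1 (0.134) or WT 2 (0.0562).

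Polysome libraries of the same replicate number deviated together, and the fit with the replicate number as a block called 11 genes, 6 higher and 5 lower. It added Nupr1 (log2 fold change -0.36, adjusted p = 0.0167) and Sars (-0.34, 0.0182) to the lower and Slc7a5 (0.35, 0.0228) and Shmt2 (0.29, 0.0434) to the higher genes. Leaving out 1 library added Slc7a5 without WT 1 (0.00885), and Sars (0.0122) and Chac1 (0.0499), both lower, without KO 3. Atf4 had 187, 179 and 251 CPM in KO and 204, 205 and 207 CPM in WT polysomes. KO 3 lay above and the other KO libraries below all WT libraries, and no difference passed (log2 fold change 0.03, SE 0.14, adjusted p = 0.911). Ddit3 had 10.1, 8.95 and 10.1 CPM in KO and 12.2, 12 and 10.9 CPM in WT polysomes. Its KO libraries were all lower, yet it did not pass (log2 fold change -0.25, SE 0.14, adjusted p = 0.221), although it did in the fit on all 18 primary libraries (0.0319).

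In subpolysomes 8 of 36 genes passed, 2 higher (Psat1 and Slc7a1) and 6 lower in KO (Ddit3, Chac1, Nupr1, Phgdh, Pycr1 and Sars), which is 22.2%, against 22% of 12645 genes tested. The 9 luminal markers summed to 4450 to 5270 CPM in KO and 3490 to 4380 CPM in WT subpolysomes, and their part in these differences was not tested. The ribosomal precursor Rn45s took 0.88, 1.72 and 5.59% of counts in KO and 0.46, 0.439 and 0.983% in WT subpolysomes, and the mitochondrial synthetase Lars2 stood at 2770, 6990 and 34500 CPM in KO and 1980, 1880 and 4480 CPM in WT. KO 3 thus stood apart from the other KO libraries, and without it 6 genes were called, with Pycr1 and Sars lost. The part of this difference between libraries in the other results was not tested. Psat1 had 635, 453 and 591 CPM in KO and 385, 331 and 326 CPM in WT subpolysomes. Slc7a1 had 49.5, 37.4 and 46.2 CPM in KO and 29.6, 24.9 and 21.1 CPM in WT subpolysomes. Both rose with no overlap (log2 fold change 0.70, SE 0.12, and 0.83, SE 0.15, adjusted p = 0.000146 each). Nupr1 had 1000, 1220 and 1190 CPM in KO and 1670, 1830 and 2120 CPM in WT subpolysomes, Chac1 had 13.1, 19.7 and 17.3 CPM in KO and 28.3, 23.4 and 25.8 CPM in WT, and Pycr1 had 1.37, 1.44 and 1.62 CPM in KO and 4.39, 2.35 and 3.77 CPM in WT. All of these KO libraries lay below the WT libraries. Log2 fold changes were -0.70 for Nupr1 (SE 0.12, adjusted p = 0.000131), -0.62 for Chac1 (SE 0.16, adjusted p = 0.00677) and -1.24 for Pycr1 (SE 0.44, adjusted p = 0.0461).

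The falls of Ddit3 (log2 fold change -0.35, SE 0.11, adjusted p = 0.0244), Phgdh (-0.47, SE 0.14, 0.0159) and Sars (-0.35, SE 0.11, 0.0262) in subpolysomes were less firm. Without KO 1 or without WT 3 only 4 genes were called, and 5 without KO 2. Ddit3 was lost without KO 1, KO 2, WT 1, WT 2 or WT 3 (adjusted p = 0.0606 to 0.103), Phgdh without KO 1 (0.0677) or WT 3 (0.0893), Sars without KO 2, KO 3, WT 2 or WT 3 (0.069 to 0.121), Chac1 without KO 1 (0.0542), and Pycr1 without KO 1, KO 2, KO 3, WT 1 or WT 3 (0.0747 to 0.186). Across the 3 kinds of RNA, Psat1, Slc7a1 and Pycr1 passed each time and in the same direction, 5 genes passed in total RNA alone (Atf5, Ppp1r15a, Shmt2, Cars and Yars), and 0 passed in a fraction without passing in total RNA. This pattern was not counted over all genes, of which 53.2% were called in total RNA, 28.8% in polysomes and 22% in subpolysomes. It therefore cannot be read as a trait of these genes. Whether the KO effects differ between the kinds of RNA is a separate test, given after the gradient results.

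**Figure D2:**
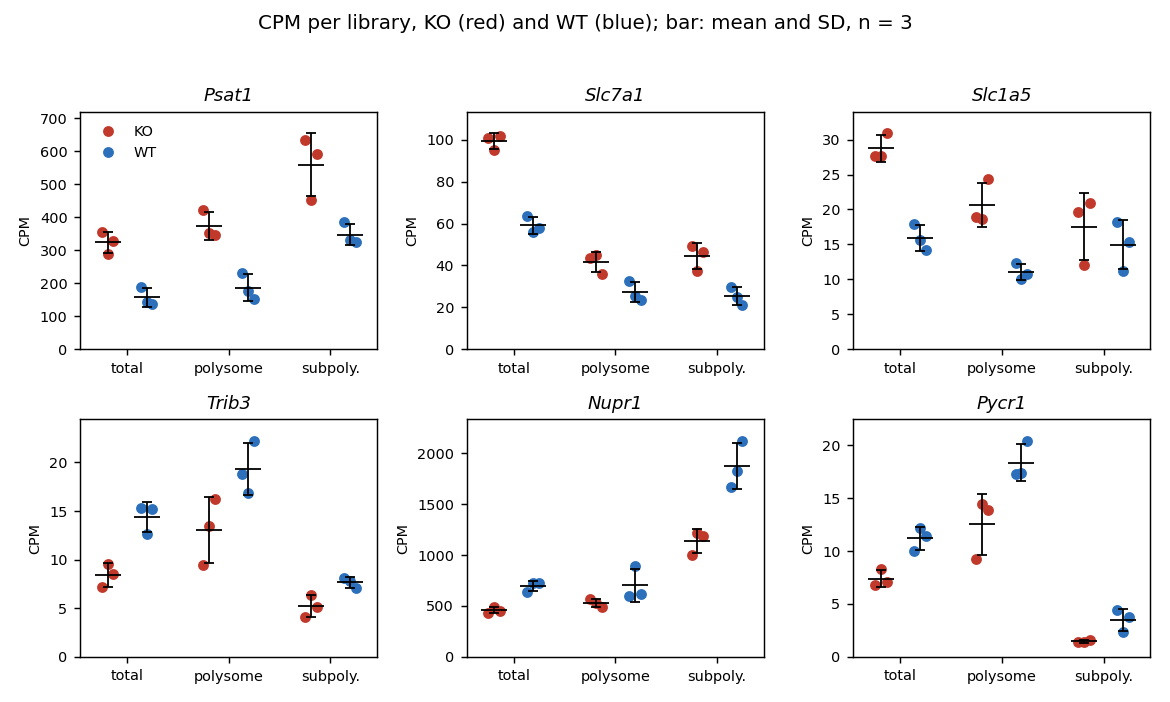
CPM of Psat1, Slc7a1, Slc1a5, Trib3, Nupr1 and Pycr1 in each KO (red) and WT (blue) library of total RNA, polysomes and subpolysomes, with mean and SD (n = 3); each panel has its own axis from 0. Psat1 and Slc7a1 are higher and Pycr1 is lower in every KO library of each kind of RNA, while Slc1a5 overlaps between genotypes in subpolysomes.

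Along the gradient, the mRNAs of the uORF-regulated genes Atf4, Atf5, Ddit3 and Ppp1r15a, and with them Sars and Nupr1, were higher in the subpolysome fraction in both genotypes, whereas Pycr1, Wars, Cebpg, Psph, Trib3, Yars and Gars were higher in polysomes. In KO organoids 12 genes were higher and 11 lower in polysomes than in subpolysomes (63.9%, against 61.6% of 13392 genes tested, 31.7% higher and 29.9% lower), and in WT organoids 14 were higher and 12 lower (72.2%, against 63.7% of those genes, 32.8% higher and 30.9% lower). Of these, 12 were higher and 10 lower in both genotypes. These are positions relative to other mRNAs. With counts scaled to library totals in place of TMM factors, the median of all genes shifted towards polysomes by 0.89 (KO) and 0.83 (WT) on the log2 scale, and the split became 27 higher and 4 lower in KO and 26 and 6 in WT. Sesn2, Vldlr, Psat1, Cars and Iars in KO and Chac1, Slc1a5, Cars and Iars in WT then changed sign.

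Atf4 mRNA had 187, 179 and 251 CPM in KO polysomes and 736, 752 and 817 CPM in KO subpolysomes. In WT organoids it had 204, 205 and 207 CPM in polysomes and 788, 752 and 891 CPM in subpolysomes. Every polysome library lay far below every subpolysome library, by 3.82 times in KO (log2 fold change -1.93, SE 0.14, adjusted p = 1.18e-10) and 4.12 times in WT (-2.04, SE 0.14, adjusted p = 4.58e-11). Ddit3 had 10.1, 8.95 and 10.1 CPM in KO polysomes and 60.8, 57.8 and 69.3 CPM in KO subpolysomes. For WT organoids the values were 12.2, 12 and 10.9 CPM in polysomes and 81.3, 78.5 and 81.9 CPM in subpolysomes. At log2 fold changes of -2.73 in KO (SE 0.12, adjusted p = 1.59e-13) and -2.84 in WT (SE 0.12, adjusted p = 7.4e-14) this was the most subpolysomal of the 36 mRNAs, at percentile 3.62 of all genes in KO and 3.76 in WT.

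Atf5 had 17.5, 15.2 and 21.7 CPM in KO polysomes and 59.3, 68.1 and 67.6 CPM in KO subpolysomes. In WT organoids it had 20.9, 17.9 and 20.5 CPM in polysomes and 63.0, 66.9 and 74.0 CPM in subpolysomes. No library of one fraction reached the other (log2 fold change -1.88 in KO and -1.85 in WT, SE 0.14 each, adjusted p = 2.31e-10 and 2.54e-10). Ppp1r15a was shifted less, with 20.8, 13.2 and 18.2 CPM in KO polysomes and 28.9, 32.4 and 33.2 CPM in KO subpolysomes. For WT organoids the values were 15.2, 13.5 and 15.6 CPM in polysomes and 37.8, 29.7 and 36 CPM in subpolysomes. The fractions did not overlap in either genotype (log2 fold change -0.89, SE 0.15, adjusted p = 3.7e-05 in KO, and -1.29, SE 0.16, adjusted p = 3.26e-07 in WT).

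Sars, with no upstream ATG in its 66-base leader, was as subpolysomal as Atf4. It had 136, 171 and 197 CPM in KO polysomes and 720, 690 and 727 CPM in KO subpolysomes. In WT organoids it had 203, 212 and 226 CPM in polysomes and 804, 940 and 1010 CPM in subpolysomes. The fractions lay far apart (log2 fold change -2.12, SE 0.14, adjusted p = 4.39e-11 in KO, and -2.17, SE 0.14, adjusted p = 2.67e-11 in WT). Nupr1 was lower in polysomes by 2.22 times in KO and 2.79 times in WT, and Sesn2 by 1.64 and 1.82 times. As with Ddit3, the annotated spans of Sars (Gm22942), Atf5 (Il4i1b and Nup62), Ppp1r15a (Tulp2) and Nupr1 (Gm39087) overlap other genes. So do those of genes described below, among them Psph (Cct6a), Wars (Gm22079 and Wdr25), Cebpg (Gm45095) and Aars (Ddx19b). The part of this overlap in their counts was not tested.

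At the other end, Pycr1 had 9.24, 14.4 and 13.9 CPM in KO polysomes and 1.37, 1.44 and 1.62 CPM in KO subpolysomes. For WT organoids the values were 17.3, 17.4 and 20.4 CPM in polysomes and 4.39, 2.35 and 3.77 CPM in subpolysomes. It was the most polysomal of the 36 (log2 fold change 3.05, SE 0.25, adjusted p = 9.28e-10 in KO, and 2.32, SE 0.23, adjusted p = 1.42e-08 in WT), on few subpolysome counts. Wars, which charges tryptophan, had 43.6, 48.2 and 46.7 CPM in KO polysomes and 18.9, 17.5 and 16.3 CPM in KO subpolysomes. In WT organoids it had 48.1, 45.6 and 47.5 CPM in polysomes and 13.1, 13.7 and 14.2 CPM in subpolysomes (log2 fold change 1.35, SE 0.12, adjusted p = 3.07e-09 in KO, and 1.72, SE 0.12, adjusted p = 8.62e-11 in WT). Cebpg (log2 fold change 1.12 in KO and 1.49 in WT) and Psph (1.65 and 1.30) were also higher in every polysome library than in any subpolysome library of their genotype. Cebpg had 175, 149 and 158 CPM in KO polysomes and 75.7, 74.5 and 66.4 CPM in KO subpolysomes, and 199, 202 and 189 against 77.7, 71.2 and 51.2 CPM in WT organoids. Psph had 47.0, 50.4 and 67.6 CPM in KO polysomes and 16, 15.6 and 19.8 CPM in KO subpolysomes, and 50.5, 53.7 and 53.5 against 20.4, 19.6 and 21.3 CPM in WT organoids. The synthetases thus lay at both ends: Wars, Yars, Gars, Lars and Nars were polysomal and Sars, Cars and Iars subpolysomal in both genotypes, the last 2 at log2 fold changes between -0.49 and -0.37 only.

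Several smaller calls rested on single libraries. In WT, Atf3 was lost without polysome 3 (adjusted p = 0.0713), Aldh18a1 without subpolysome 2 or polysome 1 (0.0536 and 0.14), Lars without subpolysome 1, polysome 1 or polysome 2 (0.0574 to 0.0766), and Slc1a5 and Iars without subpolysome 1, subpolysome 3, polysome 2 or polysome 3 (0.0564 to 0.252). Slc1a5 and Iars in WT were also lost without a KO library that only adds to the estimate of the spread, subpolysome 1 for Slc1a5 (0.0534) and subpolysome 3 for Iars (0.0546). In KO, Iars was lost without subpolysome 1, subpolysome 3 or polysome 3 (0.0645 to 0.159) and Nars without subpolysome 2, polysome 1 or polysome 2 (0.0641 to 0.11). The replicate block, on libraries of a number that deviate together, added Chac1 in KO (log2 fold change -0.37, adjusted p = 0.0382) and Vldlr (-0.37, 0.0282), Slc3a2 (-0.25, 0.0314) and Mars (-0.30, 0.0368) in WT, all lower in polysomes. Leaving out 1 library added, in KO, Chac1 without subpolysome 1 (0.0456) or polysome 3 (0.015) and Shmt2 without polysome 1 (0.0335). In WT it added Vldlr without subpolysome 2 (0.0483) or polysome 1 (0.0224), Mars without polysome 1 (0.0247) and Mthfd2 without subpolysome 1 (0.0322).

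**Figure D3:**
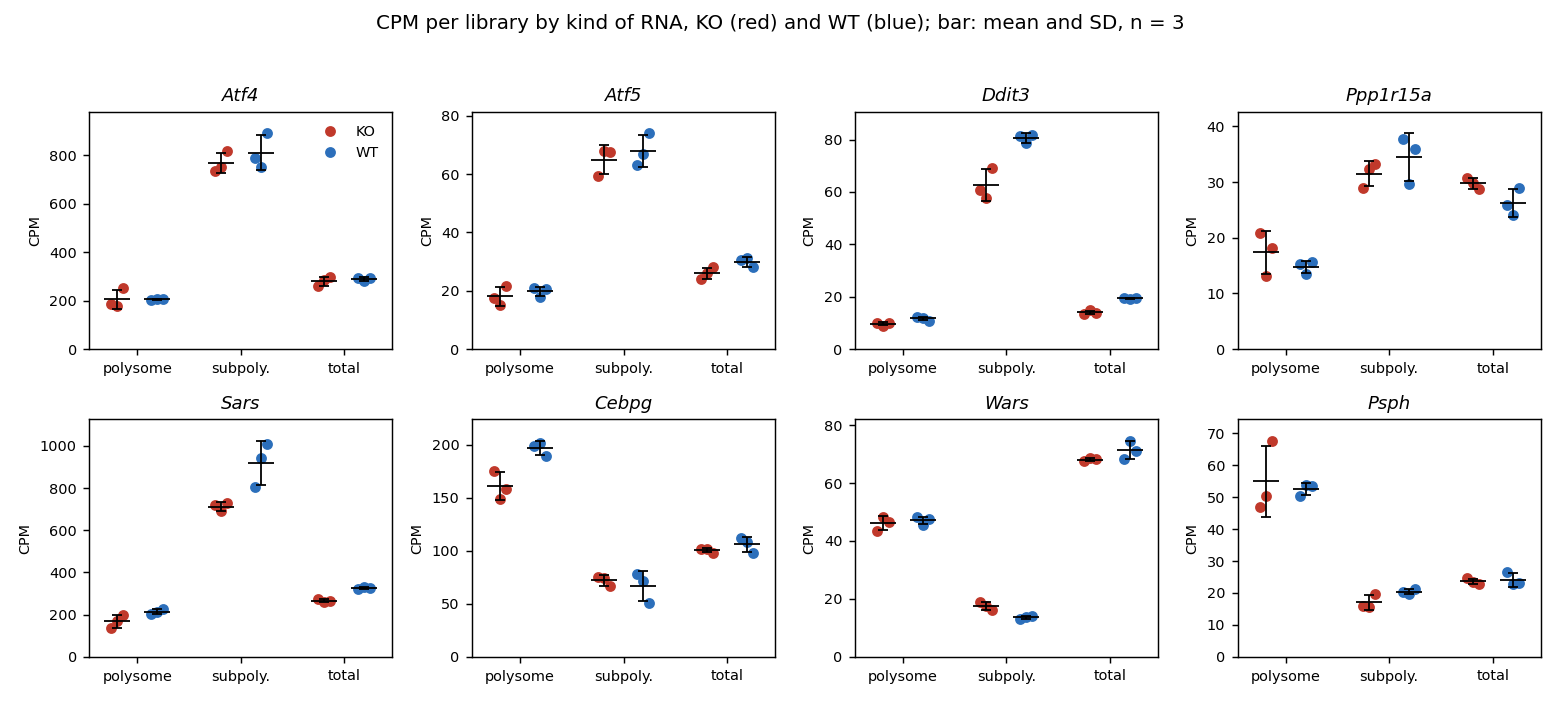
CPM of the uORF mRNAs Atf4, Atf5, Ddit3 and Ppp1r15a and of Sars, Cebpg, Wars and Psph in each KO (red) and WT (blue) library of polysomes, subpolysomes and total RNA, with mean and SD (n = 3); each panel has its own axis from 0. Atf4, Atf5, Ddit3 and Sars peak in subpolysomes in both genotypes, and Cebpg and Psph peak in polysomes. Ppp1r15a is higher in subpolysomes than in polysomes, but in KO its subpolysome libraries overlap those of total RNA.

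Genes with upstream ATGs lay at both ends of the gradient. Of the 17 genes with at least 1 upstream ATG, 6 were higher and 7 lower in polysomes in KO, and 7 and 8 in WT. Of the 19 without one, 6 were higher and 4 lower in KO, and 7 and 4 in WT. Pycr1 (3 upstream ATGs), Psph (4), Nars (4), Yars (2), Asns (2) and Cebpg (1) were polysomal in both genotypes. The ATGs were counted in GENCODE transcripts, some of which start further upstream than the RefSeq genes. All upstream ATGs of Asns, Nars and Nupr1 lie before the RefSeq start, and those of Asns overlap its CARE match. Those of Yars lie before the start site used in its motif search. How the counts depend on the transcript chosen was not tested. Over all genes with an annotated transcript, the median log2 fold change in WT was 0.11 with 0 upstream ATGs, 0.06 with 1, 0.02 with 2 and -0.04 with 3 or more (6145, 2751, 1286 and 2151 genes), so the differences were small beside those of Atf4, Atf5 and Ddit3. A uORF running past the coding start, as in Atf4 and Atf5, went with a median of -0.04 in each genotype (1955 genes), against 0.08 in KO and 0.07 in WT for other genes.

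Longer coding sequences can hold more ribosomes, so each gene was also ranked among genes of like coding length. Over 12333 genes, Spearman's rho between coding length and the polysome to subpolysome log2 fold change was -0.21 in KO and -0.204 in WT. This is across genes of the same libraries, which are not independent replicates. The sign is negative, so longer coding sequences lay lower in polysomes relative to subpolysomes, opposite to the direction that more ribosomes would give. The reason was not tested. Genes were split by coding length into 4 equal classes. In WT the class medians were 0.28, 0.42, 0.06 and -0.35, from the shortest to the longest. Within its class in WT, Atf4 (1050 bases) stood at percentile 4.48, Atf5 (852 bases) at 5.36, Ddit3 (507 bases) at 5.18, Ppp1r15a (1974 bases) at 10.3 and Sars (1539 bases) at 3.11. Nupr1, with only 243 coding bases, stood at percentile 14.9. At the other end Wars (1446 bases) stood at percentile 98, Pycr1 (930 bases) at 97.8 and Gars (2190 bases) at 95.6.

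**Figure D4:**
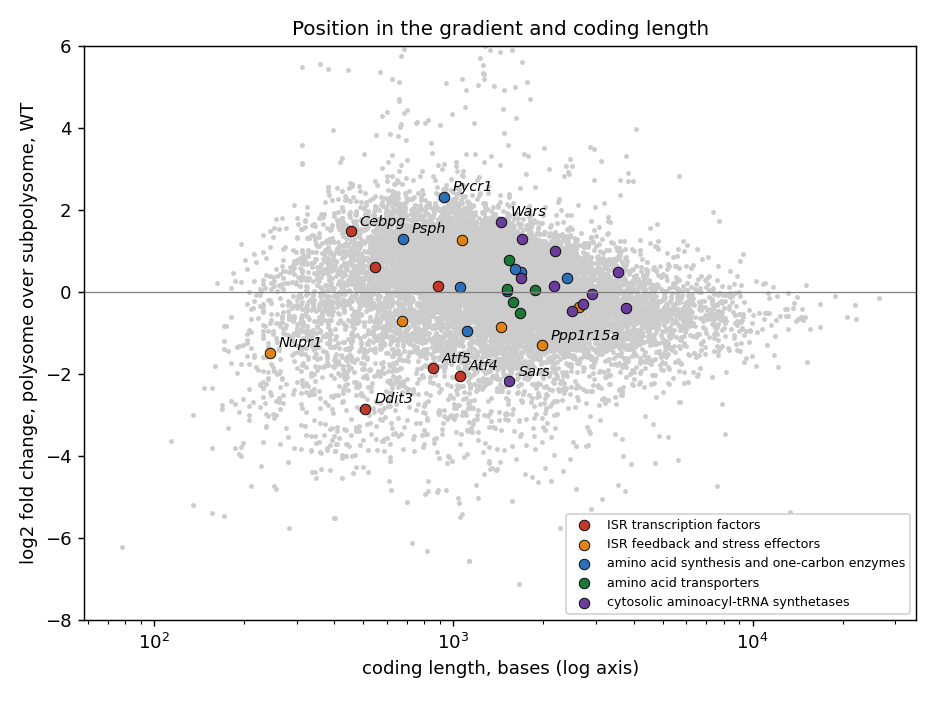
Log2 fold change of polysomes over subpolysomes in WT organoids against coding length in bases (log axis) for 12333 genes (grey; 19 lie outside the plotted range) and the 36 genes coloured by role. Ddit3, Sars, Atf4 and Atf5 lie low in the cloud at their lengths (percentiles 3.11 to 5.36 of their length classes). Pycr1 and Wars lie high in it (percentiles 97.8 and 98).

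No gene of the list passed the test of a difference between KO and WT in the polysome to subpolysome ratio. The interaction of genotype and fraction in edgeR called 0 of 36 genes, 4 had an unadjusted p under 0.05 (Slc1a5, Pycr1, Slc3a2 and Wars), and DESeq2 called 0, as did the fit with the replicate block. Of all 13392 genes, 1 was called (0.00747%). The log2 difference, KO minus WT, was 0.11 for Atf4 (SE 0.19), -0.03 for Atf5 (SE 0.19), 0.12 for Ddit3 (SE 0.16) and 0.39 for Ppp1r15a (SE 0.22), so a difference of the size of these errors could not be told from 0. The largest was that of Pycr1 (0.74, SE 0.33, adjusted p = 0.877), followed by Slc1a5 (0.71, SE 0.29, adjusted p = 0.877). The same interaction between polysomes and total RNA, an alternative added after the data were seen, called 0 of 36 genes with 0 at an unadjusted p under 0.05, and 0% of 13507 genes.

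Relative to total RNA, the amino acid transporters and most synthetases were lower in polysomes in both genotypes. Their mean levels were also lower in subpolysomes than in total RNA, apart from Sars (712 against 267 CPM in KO, 919 against 326 in WT). In KO, means in total RNA, polysomes and subpolysomes were 149, 56.4 and 53.2 CPM for Aars. They were 99.1, 41.6 and 44.4 CPM for Slc7a1 and 264, 161 and 159 CPM for Slc38a2. A fall against total RNA thus does not by itself place an mRNA in the subpolysome fraction. In KO organoids 5 genes were higher and 21 lower in polysomes than in total RNA, and in WT organoids 3 were higher and 22 lower. In all, 72.2% of the 36 were called in KO and 69.4% in WT, against 66.1% and 67.9% of 13507 genes tested. The lower genes came to 58.3% in KO and 61.1% in WT, against 33.4% and 34.8% of all genes, and the higher genes to 13.9% and 8.33%, against 32.7% and 33.1%. The median log2 fold change of the 36 was -0.48 in KO and -0.52 in WT, against -0.01 and -0.026 over all genes. Of 11 synthetases, 9 were lower in KO and 10 in WT. Aars, which charges alanine, had 52.4, 56.2 and 60.5 CPM in KO polysomes and 144, 148 and 154 CPM in KO total RNA. For WT organoids the values were 61.4, 53.8 and 49.3 CPM in polysomes and 160, 157 and 153 CPM in total RNA. This was the largest fall of the 36 in each genotype (log2 fold change -1.41, SE 0.09, adjusted p = 2.21e-09 in KO, and -1.55, SE 0.10, adjusted p = 6.54e-10 in WT).

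All 5 transporters were lower in polysomes than in total RNA. Slc7a1 had 43.6, 45.0 and 36.1 CPM in KO polysomes against 101, 95.0 and 102 CPM in KO total RNA, and 32.5, 25.3 and 23.7 CPM in WT polysomes against 63.8, 56.2 and 57.7 CPM in WT total RNA. It fell by more than the other transporters (log2 fold change -1.26, SE 0.12, adjusted p = 9.4e-08 in KO, and -1.16, SE 0.12, adjusted p = 2.39e-07 in WT). Iars, which charges isoleucine, was as low in polysomes (log2 fold change -1.13 in KO and -1.16 in WT, SE 0.11 each), with 53.2, 52.1 and 40.3 CPM against 109, 102 and 106 CPM of total RNA in KO and 56.9, 51.5 and 43.3 CPM against 111, 112 and 109 CPM in WT. Slc7a5 was the weakest (log2 fold change -0.39, adjusted p = 0.0497 in KO, and -0.51, 0.0119 in WT). Its KO call was lost without any 1 of the KO total RNA libraries, KO polysome 1 or 2, WT total RNA 2 or 3 or WT polysome 3 (0.0507 to 0.15), and its WT call without WT total RNA 1, WT polysome 2 or WT polysome 3 (0.0582 to 0.0752). Higher in polysomes in both genotypes were Psph (log2 fold change 1.21 in KO and 1.09 in WT), Pycr1 (0.75 and 0.68) and Cebpg (0.66 and 0.85). In total RNA Psph had 24.6, 23.5 and 22.8 CPM in KO and 26.5, 22.8 and 23 CPM in WT. Cebpg had 102, 102 and 98.3 CPM in KO and 112, 108 and 98 CPM in WT total RNA. In KO, Trib3 (0.62, adjusted p = 0.0044, with overlapping libraries) and Atf3 (0.42, 0.0262) were higher in polysomes as well. Atf3 was lost without any 1 of the KO total RNA libraries or KO polysome 1 (0.0562 to 0.0981), and Gars in WT without total RNA 1 or polysome 3 (0.0616 and 0.0839). Calls gained without 1 library were Phgdh (KO polysome 1), Vldlr (KO polysome 1, WT polysome 1 or 3) and Asns (WT polysome 1 or 3) in KO, and Atf3 (WT total RNA 3), Psat1 (WT total RNA 1), Trib3 (KO polysome 1 or 3, WT polysome 2), Cebpb and Nupr1 (WT polysome 2) and Asns (WT polysome 1) in WT, with adjusted p of 0.00313 to 0.0497.

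In the bladder cancer organoids, no gene of the list passed between the libraries labelled KO and those labelled WT. Arid1a was high in the libraries labelled KO 1 (174 CPM) and WT 2 (196 CPM). It was low in those labelled KO 2 (56.2 CPM) and WT 1 (66.5 CPM), so each label mixes both levels. The contrast as labelled therefore cannot show what goes with loss of Arid1a in cancer organoids. edgeR called 0 of 36 genes with 0 at an unadjusted p under 0.05, DESeq2 called 0, and edgeR called 0% of all 12681 genes tested. Nupr1 had the largest log2 fold change (1.13, SE 0.74, adjusted p = 1), with 4.18 and 2.38 CPM in the libraries labelled KO and 0.762 and 2.24 CPM in those labelled WT. Atf4 had 162 and 154 CPM in the libraries labelled KO and 157 and 148 CPM in those labelled WT, a log2 difference of 0.06 (SE 0.13). Psat1, 2.11 times higher in the primary KO organoids, had 483 and 668 CPM in the libraries labelled KO and 597 and 568 CPM in those labelled WT (log2 fold change -0.01, SE 0.21). In the pair whose Arid1a counts fit their labels, the library labelled KO 2 against the library labelled WT 2, the log2 differences without a test were 0.24 for Psat1, 0.93 for Slc7a1, -0.53 for Slc1a5, 0.09 for Slc3a2, -0.36 for Trib3, -0.13 for Ddit3, 0.18 for Chac1, 3.48 for Atf3, 0.08 for Nupr1 and -0.81 for Pycr1. The value of Atf3, at 7.56 CPM in the library labelled KO 2 and 0.675 CPM in that labelled WT 2, is opposite in sign to its fall in primary KO organoids. It rests on a single library of each label. The pair labelled KO 1 and WT 1, whose Arid1a counts go against the labels, gave -1.62 for Atf3. Vldlr, which did not pass in primary total RNA, had -3.36 for KO 2 against WT 2 and 2.08 for KO 1 against WT 1. The difference between the KO effect in cancer as labelled and in primary organoids, a test added after the data were seen, called 0 of 36 genes (8 at an unadjusted p under 0.05), against 3.13% of all genes (1.53% higher and 1.6% lower). The smallest p was that of Psat1 (log2 difference -1.11, SE 0.26, adjusted p = 0.0647). As this test uses the same cancer labels, it cannot show whether Arid1a loss acts differently in cancer and primary organoids.

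Set against primary organoids, the cancer organoids had higher mRNA of transporters, synthesis enzymes and synthetases and lower mRNA of Atf4 and of the stress effectors. Of the 36 genes, 22 were higher and 12 lower in cancer (94.4%, against 77.8% of 14305 genes tested, 38.8% higher and 39% lower). All 4 cancer libraries belong to a separate set, for which the submitters' processing notes name fewer tools, so the cancer state and that set cannot be told apart. The 9 luminal markers summed to 65.3 to 199 CPM in cancer against 3340 to 3810 CPM in primary total RNA, with Upk1a, Upk2, Upk3a and Krt7 under 1 CPM, and the 5 basal markers to 11700 to 17800 CPM against 10900 to 13000 CPM. Their part in the differences was not tested.

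All 6 stress effectors were lower in cancer. Nupr1 had 4.18 and 2.38 CPM in the libraries labelled KO and 0.762 and 2.24 CPM in those labelled WT, against 432 to 727 CPM in the 6 primary libraries. It was 257 times lower (log2 fold change -8, SE 0.37, adjusted p = 3.03e-07), at percentile 1.27 of all genes. Chac1 had 4.34 and 2.76 CPM in the libraries labelled KO and 4.22 and 2.44 CPM in those labelled WT, against 10.7 to 15.6 CPM in primary libraries. Sesn2 had 8.61 and 12.8 CPM in the libraries labelled KO and 25.1 and 8.78 CPM in those labelled WT, against 41.9 to 48.1 CPM in primary libraries. Neither overlapped the primary libraries (log2 fold change -1.89, SE 0.20, adjusted p = 3.77e-05 for Chac1, and -1.77, SE 0.28, adjusted p = 0.000469 for Sesn2). Trib3 (log2 fold change -1.73) and Ppp1r15a (-1.71) fell to a like degree. Vldlr (-1.70, SE 0.61, adjusted p = 0.0321) was lost without any 1 of the 6 primary libraries, the library labelled WT 1 or the library labelled KO 2 (0.0502 to 0.0584).

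Of the transcription factors, Atf4 had 148 to 162 CPM in the cancer libraries, all below the 261 to 297 CPM of the primary libraries (log2 fold change -0.89, SE 0.05, adjusted p = 1.38e-06). Ddit3 (-1.47, SE 0.11), Atf5 (-1.16, SE 0.17) and Cebpg (-0.57, SE 0.05) were lower as well. Cebpb was called higher (0.46, SE 0.16, adjusted p = 0.026) but overlapped, and was lost without primary WT 2, WT 3 or KO 3, the library labelled WT 2 or the library labelled KO 1 (0.0516 to 0.101). Atf3 spread widely, with 1.66 and 7.56 CPM in the libraries labelled KO and 5.12 and 0.675 CPM in those labelled WT, and passed only without the library labelled WT 1 (adjusted p = 0.321 with all libraries and 0.0146 without it).

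All 5 transporters were higher in cancer. Slc7a1 had 455 and 1130 CPM in the libraries labelled KO and 641 and 592 CPM in those labelled WT, against 56.2 to 102 CPM in primary libraries. Slc7a5 had 245 and 288 CPM in the libraries labelled KO and 202 and 324 CPM in those labelled WT, against 34 to 45.1 CPM in primary libraries. Both rose far beyond the spread of either set, by 9.06 times for Slc7a1 (log2 fold change 3.18, SE 0.22, adjusted p = 3.03e-06) and 6.71 times for Slc7a5 (2.75, SE 0.14, adjusted p = 5.23e-07). Slc38a2 (1.95), Slc1a5 (1.76) and Slc3a2 (0.57) followed, the last with overlapping libraries, since the library labelled WT 1 had 148 CPM and primary KO 3 had 154 CPM.

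Of the 8 synthesis enzymes, 7 were higher in cancer. Phgdh had 198 and 183 CPM in the libraries labelled KO and 182 and 164 CPM in those labelled WT, against 39.3 to 50.8 CPM in primary libraries (log2 fold change 2.02, SE 0.06, adjusted p = 5.48e-08). Shmt2 (1.86), Psat1 (1.35) and Mthfd2 (1.16, with 71.0 to 92.4 CPM in cancer against 32.9 to 44.4 CPM) rose too, and Asns had 112 to 140 CPM against 75.6 to 87.3 CPM (0.57, SE 0.07, adjusted p = 9.17e-05). Pycr1 alone of the enzymes was called lower (-0.64, SE 0.22, adjusted p = 0.028), with overlapping libraries, and was lost without primary KO 2, WT 2 or WT 3 or either library labelled WT (0.0514 to 0.0654). Of the 11 synthetases, 9 were higher, from Wars (log2 fold change 0.65) to Mars (1.82, SE 0.05, adjusted p = 4.13e-08). Sars was lower (-0.75, SE 0.07, adjusted p = 2.29e-05), with 148 to 197 CPM in cancer against 260 to 331 CPM. Cars had a log2 fold change of -0.07 (SE 0.05, adjusted p = 0.224) and passed only without the library labelled KO 1 (0.0268).

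**Figure D5:**
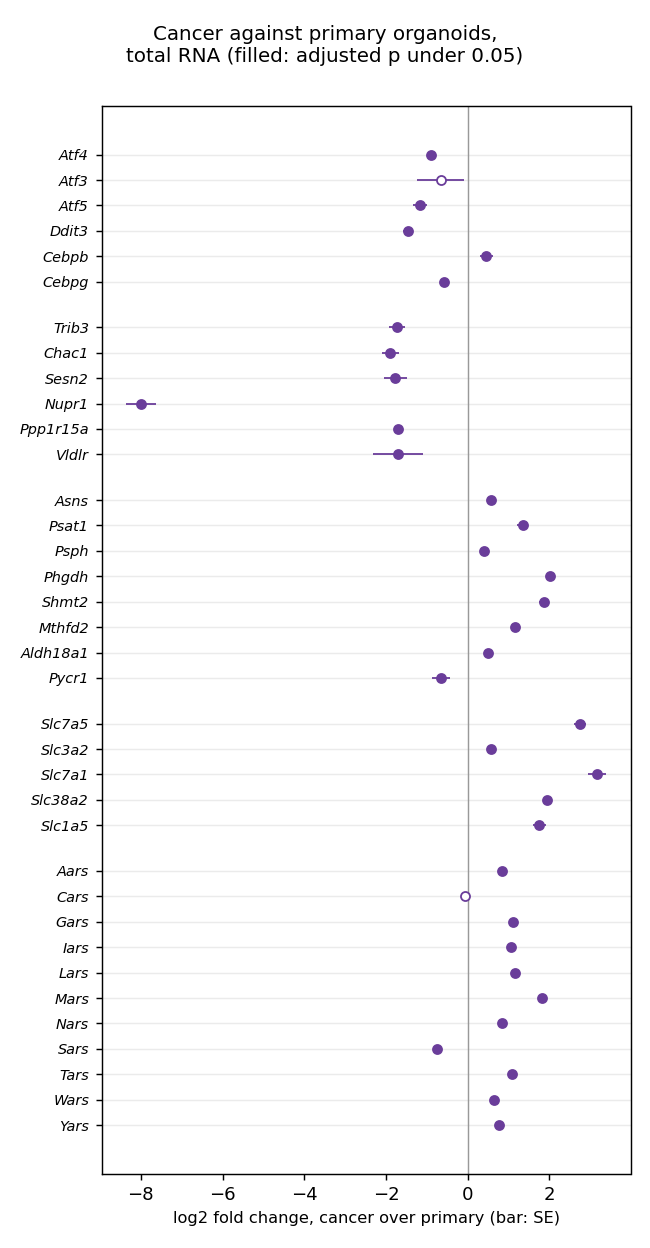
Log2 fold change of the 36 genes between cancer and primary organoids in total RNA, by role from transcription factors at the top to synthetases at the bottom; bars are the SE of the fit, and filled points have an adjusted p under 0.05. All 6 stress effectors lie left of 0, with Nupr1 at -8, all 5 transporters lie right of 0, and 9 of 11 synthetases are filled right of 0.

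Other genes of the pathway were counted over whole lists. The shares of all genes called were 27% higher and 26.3% lower in KO than in WT total RNA. Of 15 genes for the eIF2 kinases, eIF2, eIF2B and the eIF2 phosphatase, 2 were higher (Eif2b4 at a log2 fold change of 0.39 and Ppp1r15b at 0.30) and 1 lower (Impact, -0.49) in KO total RNA, with a median of 0.01. Of 27 tested genes known as Atf4 targets outside the 36, 10 were higher and 4 lower, with a median of 0.16. Slc7a11, the cystine carrier, had the smallest p (1.91, SE 0.09, adjusted p = 2.06e-08), then Rab32 (-0.90) and Slc6a9, a glycine carrier (0.74). Of 12 other cytosolic synthetase and scaffold genes 1 was higher and 2 lower, and of 17 mitochondrial synthetases 2 were higher and 1 lower. The lower gene was Lars2, with 1620, 1720 and 1680 CPM in KO and 1860, 2270 and 1970 CPM in WT total RNA. Rn45s took 2.08, 2.02 and 2.07% of counts in KO and 2.58, 2.54 and 2.44% in WT total RNA. A link between Lars2 and Rn45s counts was not tested. Of 9 tested mRNAs known for uORF control 2 were higher and 4 lower. Between WT polysomes and subpolysomes, where 32.8% of all genes were higher and 30.9% lower, these uORF mRNAs went both ways: Azin1 was higher in polysomes (log2 fold change 1.75, SE 0.14), Slc35a4 (-1.15, SE 0.14) and Odc1 (-0.64, SE 0.15) were lower, and 2 of 9 were higher and 3 lower in all. Of the other cytosolic synthetases Qars was more subpolysomal than any of the 36 (-4.37, SE 0.15, adjusted p = 4.22e-15), and Dars was polysomal (1.77). In cancer against primary organoids, where 38.8% of all genes were higher and 39% lower, 10 of 12 other cytosolic synthetase and scaffold genes and 11 of 17 mitochondrial synthetases were higher, while of 28 tested Atf4 targets 10 were higher and 15 lower.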

How the data were processed

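The deposited files hold raw counts per gene symbol, 1 file per library, with no normalization by the authors. The submitters' processing notes name HTSeq and mm10 for all libraries, and Bowtie for the 18 primary ones. Tool versions, annotation and strand setting: not given in the sources used here. Replicates may be technical, since no label ties them to separate animals or cultures, and p-values then cover only the spread among libraries.

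Each comparison was fitted over all genes in edgeR 4.0.16 (R 4.3.3): TMM factors, filterByExpr, glmQLFit and glmQLFTest, with Benjamini-Hochberg adjustment over all genes tested and a threshold of 0.05. KO was compared with WT within each kind of RNA on its own 6 libraries (4 in cancer). Comparisons of fractions used 12 libraries with both genotypes, and cancer against primary used 10. The SE was taken as the size of the log2 fold change divided by sqrt(F). Percentiles rank a gene's log2 fold change among all genes tested. DESeq2 1.42.0 was an alternative. Other alternatives were RLE factors, no filter, a replicate block, all 18 primary libraries in 1 fit, each library left out in turn and, chosen after seeing the data, scaling to library totals. The scripts were tested on simulated data. A marker of the immune list is not reported here, and the sums leave it out. The members and the other lists were chosen with earlier results of these data known. All 36 genes are given by role. Every library is given for Atf4, Atf5, Ddit3, Ppp1r15a, Atf3, Trib3, Chac1, Asns, Psat1, Phgdh, Mthfd2, Slc7a5, Slc3a2 and Slc7a1 where the comparison turns on them, and for the 3 highest and 3 lowest called in each comparison. Other pathway genes are given as counts with up to 3 named per list by smallest p.

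Same-numbered libraries were taken as paired where the correlation of their deviations from group means passed 0.1 in all 3 pairs. This held for KO and WT polysomes (r = 0.255, 0.262 and 0.472), for polysomes and subpolysomes in KO and WT, and for polysomes and total RNA in KO (0.117 to 0.296), but not for KO and WT total RNA (lowest -0.153) or subpolysomes (0.0862) or for polysomes and total RNA in WT (0.0677). Pairs of libraries of 1 group differed beyond sampling noise.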

Additional observations from a re-analysis of the deposited data

How the results depend on the processing

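No gene changed direction while past the threshold, apart from the sign changes given above for library-total scaling. In total RNA, KO against WT called 17 genes, 9 in the fit on all 18 primary libraries and 13 to 17 with 1 library left out. In polysomes it called 7, 11 with the replicate block, 11 on all 18 libraries and 4 to 9 with 1 left out. In subpolysomes it called 8, 10 on all 18 libraries, adding Trib3 (log2 fold change -0.56, adjusted p = 0.0342) and Wars (0.36, 0.00427), and 4 to 6 with 1 left out. In polysomes the fit on all 18 also added Ddit3 (0.0319) and Cebpg (0.0489). Counts over all genes moved in the same direction: 7025 and, on all 18, 3784 in total RNA, 3757, 5030 with the block and 4445 on all 18 in polysomes, and 2782 and 4120 on all 18 in subpolysomes. The replicate block, where the numbers do not pair the libraries, gave 15 in total RNA, without Atf5 and Cars, 7 in subpolysomes, without Pycr1 (adjusted p = 0.0667), and 28 for polysomes against total RNA in WT, adding Atf3, Psat1 and Trib3. Where they do, it gave 24 (KO) and 29 (WT) for polysomes against subpolysomes and 27 for polysomes against total RNA in KO, adding Vldlr (log2 fold change -0.29, adjusted p = 0.0315), and changed no other call than those named. In cancer, same-numbered libraries deviated in opposite directions (r = -0.421), and the block called 0 genes both as numbered and with the numbers crossed. Depth limits the lowest genes most: Pycr1 in subpolysomes and Atf3 in cancer rest on as few as 40 and 41 counts.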
